A study of Gallus gallus with 6 samples.

Results

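The JmjC histone demethylases of the KDM3, KDM4, KDM5 and KDM6 subfamilies were examined in primary chick lens cells exposed to dimethyloxalylglycine (DMOG). Of 10 genes named, KDM3A, KDM3B, JMJD1C, KDM4B, KDM4C, KDM5A and KDM5B matched 7 of the 17340 loci in the deposited table by gene name, and KDM4A, KDM6A and KDM6B were not matched and are not analysed here. KDM3B and KDM5A lie in loci that the assembly joins to a neighbouring gene, REEP2 and SLC6A13, so their values cannot be divided between the joined genes. All cells were Embryonic day 10 White Leghorn primary lens cells, cultured from dissociated lenses. The 3 DMOG libraries came from cells given 1 mM DMOG for 4 h and the 3 untreated libraries from cells without it, and no vehicle is named for them. The study used DMOG to activate HIF1α. The methods call the libraries biological triplicates, but nothing says that each came from a separate lens preparation, so the p-values measure the spread between these libraries.

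JmjC demethylases remove methyl groups from histone lysines in a reaction that needs oxygen, iron and 2-oxoglutarate, the same requirements as the HIF prolyl hydroxylases. DMOG gives rise to an analogue of 2-oxoglutarate and inhibits 2-oxoglutarate dioxygenases broadly, and the JmjC enzymes belong to that class. In human cells several of their genes are known as hypoxia-inducible. The data are transcript levels. Neither enzyme activity nor histone methylation was measured in them.

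Expression is given as FPKM (fragments per kilobase of transcript, relative to the fragments mapped in the library), so levels of different genes are compared per length. Fold changes are log2 changes of FPKM + 0.5, DMOG over untreated, from limma fitted to the 9816 loci that averaged 1 FPKM or more over the 6 libraries. The limits were those of the study, namely a log2 fold change of 0.60 or more, up or down, with an unadjusted p below 0.05. All 7 matched loci were tested. The summed FPKM per library ranged from 189239 to 212100 with DMOG and from 169975 to 202442 in untreated cells, and the depth in reads is unknown. Small RNA loci held from 24.8% to 37.4% of the FPKM with DMOG and from 24.0% to 28.7% without it, and DMOG replicate 3 had the highest share. The median log2 fold change of all tested loci was -0.13, or -0.01 after median scaling, and of the loci past the limits 36.4% were higher, against 56.1% after scaling each library to the same median and 56.2% after quantile normalization. All 4 HIF targets taken as a check of the treatment, EGLN3, SLC2A1, VEGFA and BNIP3L, were higher at the limits, with log2 fold changes from 1.15 to 4.57. For all 4 DMOG replicate 3 was the lowest treated library, though above every untreated one. BNIP3L measured 70.2, 65.0 and 32.55 FPKM with DMOG, against 19.1, 25.3 and 26.9 FPKM in untreated cells.

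The matched lens markers summed to between 1096 and 1712 FPKM with DMOG and between 1158 and 1737 FPKM in untreated cells. CRYAA was the largest part, at means of 768 FPKM with DMOG and 824 FPKM without it. The locus joining ASL1, ASL2 and GUSB followed at 376 and 285 FPKM, and CRYAB at 212 and 180 FPKM. Some lens markers were low, with CRYBB1 at 2.41 and 2.68 FPKM, MIP at 2.31 and 0.973 FPKM, and CRYBA4 at 0.03 and 0 FPKM. Of 12 tested lens markers, 0 passed the limits and 0 had an unadjusted p under 0.05 in limma, and 10 had a positive log2 fold change, with a median of 0.26. Over all tested loci 36.3% were positive and 7.81% passed the limits, so at least 7.81% had an unadjusted p under 0.05. MIP was among the 10, and averaged under 1 FPKM in untreated cells, so it was tested only through the treated libraries. All 5 tested markers of other cells had a negative log2 fold change, and the part of these differences in the results was not tested. The lens markers LIM2 and FOXE3 were not matched. Summed markers of other cells were far below the summed lens markers, but not every one was low. The median tested locus measured 5.03 to 6.50 FPKM per library, and ALAS2 and POSTN averaged more than that in both conditions. The 6 matched erythroid markers summed to between 8.12 and 11.6 FPKM with DMOG and between 10.0 and 12.9 FPKM without it. ALAS2 made up the whole of these sums. TAL1 and the matched globins HBBA, HBE1, HBZ and HBA1 were listed at 0 throughout. The 9 mesenchymal markers summed to between 8.67 and 18.4 FPKM with DMOG and between 12.4 and 19.7 FPKM without it. POSTN averaged 8.98 FPKM with DMOG and 9.56 FPKM without it, and PDGFRA 3.87 and 4.38 FPKM, while TWIST1, LUM and PRRX1 were at 0. The 8 retinal markers summed to at most 1.00 FPKM with DMOG and 0.690 FPKM in untreated cells, with SIX6, OTX2 and PMEL at 0. The 6 endothelial markers summed to between 8.39 and 11.2 FPKM with DMOG and between 8.71 and 15.3 FPKM without it. Most of this was CDH5, at means of 5.34 FPKM with DMOG and 6.20 FPKM without it, and PECAM1, at 3.16 and 4.15 FPKM. None of the 5 tested markers of these other cells passed the limits. In RNA from whole cultures, a change in the number of cells of a type and a change in RNA per cell cannot be told apart.

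Among the demethylases, the H3K9 enzyme gene KDM3A and the H3K4 enzyme gene KDM5B rose with DMOG, KDM4B was higher in every treated library but short of the fold limit, and the other 4 loci overlapped between conditions. Thus 2 of 7 tested members (28.6%) were higher at the limits, where 2.84% of all tested loci were, and 0 were lower, where 4.97% of all tested loci were. In limma, 0 members had an adjusted p under 0.05, which 0.194% of tested loci reached and 0.163% reached as higher with DMOG. At an unadjusted p under 0.05 alone 3 members were higher, as were 3.11% of tested loci. For 3 members the lowest treated value exceeded the highest untreated one, against 4.47% of all tested loci. For 0 members all treated values were below the untreated ones, against 11.4%. The median log2 fold change over the 7 members was 0.15, and 0.27 after median scaling. Because the genes were chosen with results of these libraries known, the counts describe the members and carry no test.

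**Figure D1:**
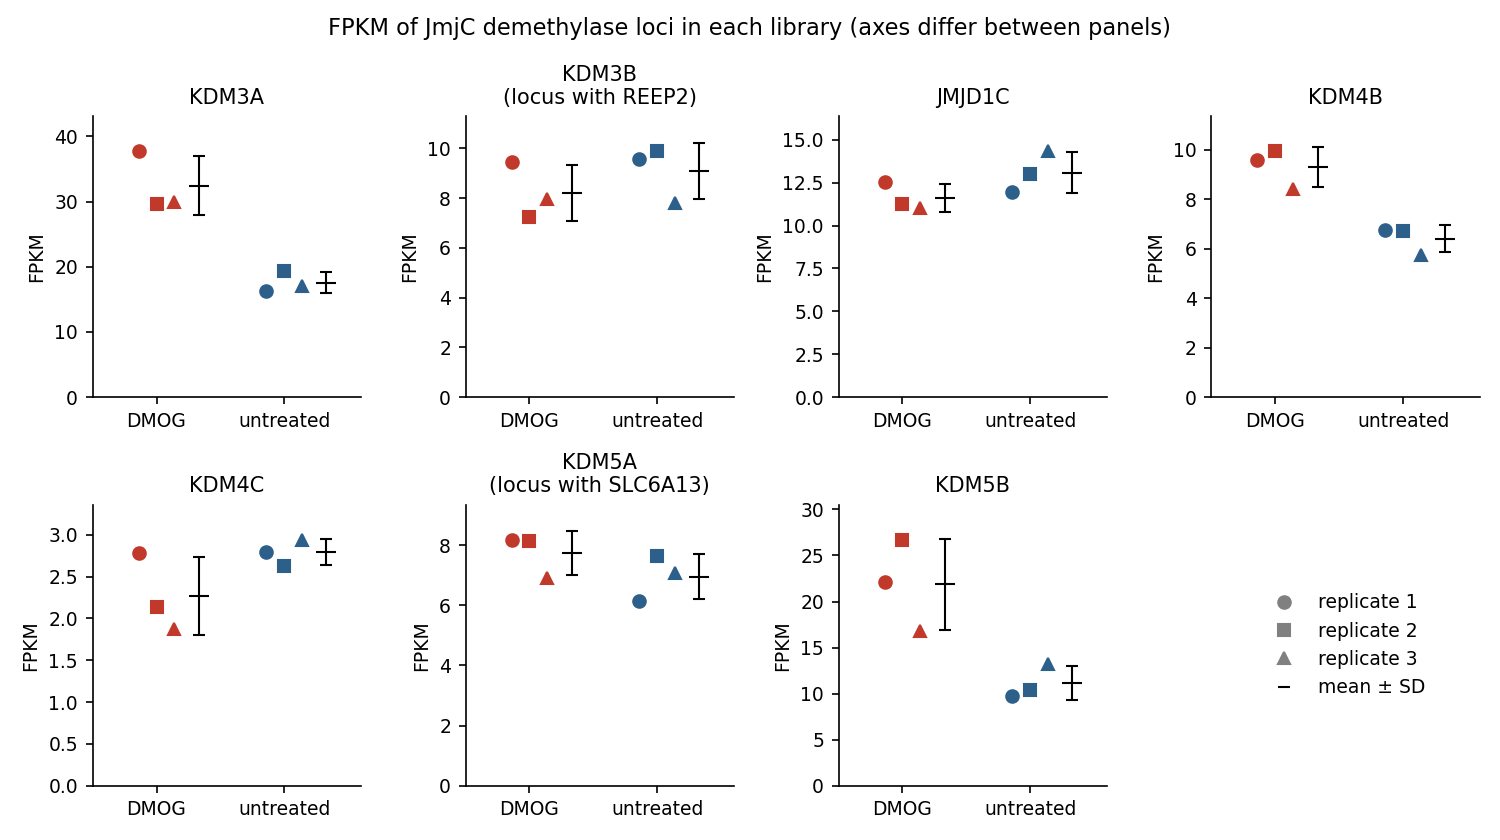
FPKM of each matched demethylase locus by library, with DMOG left of untreated in each panel, one symbol per replicate and bars for the mean ± SD (n = 3). The DMOG and untreated points are separate for KDM3A, KDM4B and KDM5B and overlap for KDM3B, JMJD1C, KDM4C and KDM5A.

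The KDM3 genes encode demethylases of mono- and dimethylated H3K9, a mark of silenced chromatin. KDM3A measured 37.7, 29.7 and 30.0 FPKM in DMOG replicates 1, 2 and 3, against 16.3, 19.4 and 17.0 FPKM in untreated replicates 1, 2 and 3. The lowest treated library stood well above the highest untreated one, and replicate 1 was the highest of the treated libraries. The ratio of the means was 1.85, and the log2 fold change was 0.86 (95% interval 0.44 to 1.28; limma adjusted p 0.179). This was 0.99 above the median of all tested loci, and 96.3% of tested loci had a smaller log2 fold change.

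KDM3B encodes a closely related H3K9 demethylase, and its locus includes REEP2, the gene of an endoplasmic reticulum membrane protein. The locus measured 9.44, 7.24 and 7.95 FPKM in the DMOG libraries, against 9.59, 9.88 and 7.81 FPKM in the untreated libraries. The conditions overlapped, and DMOG replicate 1 and untreated replicate 1 were almost equal. The log2 fold change was -0.14 (95% interval -0.63 to 0.35; limma adjusted p 0.863). In the RefSeq annotation of the assembly GRCg7b, 0 protein-coding genes lie between KDM3B and REEP2.

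JMJD1C, the third KDM3 gene, encodes a nuclear JmjC protein whose demethylase activity on H3K9 is debated. It measured 12.5, 11.2 and 11.0 FPKM with DMOG, against 11.9, 13.0 and 14.3 FPKM in untreated cells. DMOG replicate 1 lay between the lowest and the middle untreated library, and the other treated libraries lay just below all untreated ones. Its log2 fold change was -0.16 (95% interval -0.59 to 0.26; limma adjusted p 0.813). For KDM3B and JMJD1C the upper bounds of the intervals, 0.35 and 0.26, lay below the change measured for KDM3A.

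KDM4 enzymes act on trimethylated H3K9 and, for some members, on trimethylated H3K36. KDM4B measured 9.59, 9.94 and 8.42 FPKM with DMOG, against 6.75, 6.71 and 5.77 FPKM in untreated cells. The groups did not overlap, and replicate 3 was the lowest library in each. The ratio of the means was 1.45, and the log2 fold change of 0.51 (95% interval 0.05 to 0.97; limma unadjusted p 0.0347, adjusted p 0.520) was below the fold limit. Relative to the median of all tested loci it was 0.64. After median scaling KDM4B passed the limits at a log2 fold change of 0.63, and after quantile normalization it passed at 0.63 as well. Its unadjusted p in limma was over 0.05 when any library other than DMOG replicate 3 was left out, from 0.0622 to 0.0977.

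KDM4C had the lowest level of the 7 loci. It measured 2.78, 2.14 and 1.88 FPKM with DMOG, against 2.80, 2.63 and 2.94 FPKM in untreated cells. DMOG replicate 1 lay within the untreated range, and the other treated libraries were lower than all of them. The log2 fold change was -0.26, with an interval that spans from -0.92 to 0.39 (95%; limma adjusted p 0.808), the widest of the members.

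KDM5 enzymes remove methyl groups from di- and trimethylated H3K4, the mark of active promoters. KDM5B measured 22.1, 26.7 and 16.8 FPKM with DMOG, against 9.72, 10.4 and 13.2 FPKM in untreated cells. The groups did not overlap, and the values closest to each other were those of DMOG replicate 3 and untreated replicate 3. The ratio of the means was 1.97 and the log2 fold change 0.93 (95% interval 0.39 to 1.47; limma adjusted p 0.275), or 1.06 above the median of all tested loci. A smaller log2 fold change was found at 96.8% of tested loci. Without DMOG replicate 3 it was 1.11, and without DMOG replicate 2 it was 0.78.

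The KDM5A locus also holds SLC6A13, a transporter gene, and 0 protein-coding genes lie between the pair in GRCg7b. It measured 8.17, 8.15 and 6.90 FPKM with DMOG, against 6.15, 7.63 and 7.06 FPKM in untreated cells. The lowest treated library lay within the untreated range, so the conditions overlapped. Its log2 fold change was 0.15 (95% interval -0.33 to 0.62; limma adjusted p 0.852).

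**Figure D2:**
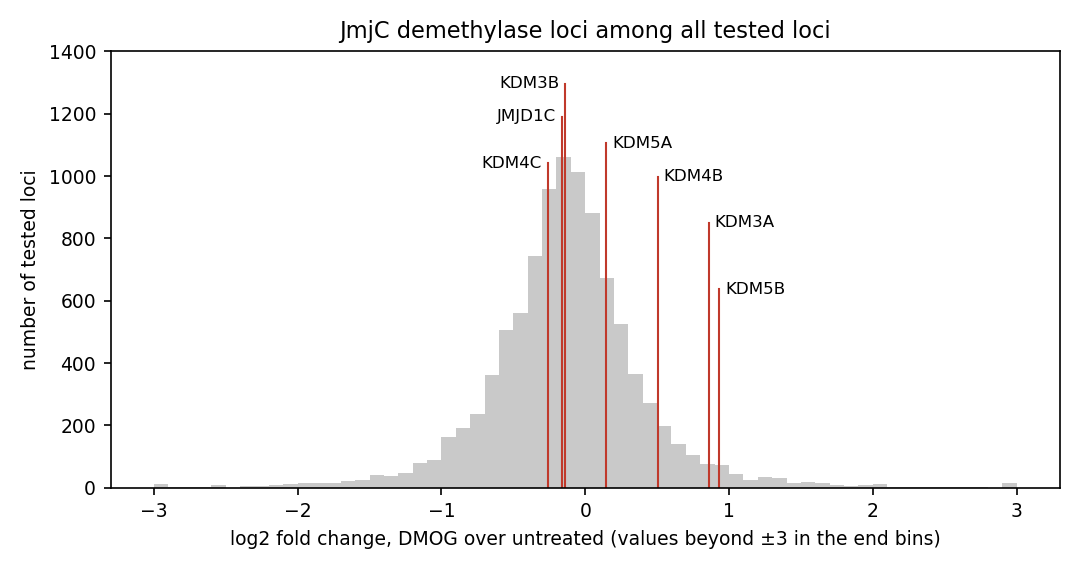
Histogram of the log2 fold change (DMOG over untreated, FPKM + 0.5) of the 9816 tested loci, in bins of 0.1, with red lines at the 7 demethylase loci; line heights carry no value. KDM3A (0.86) and KDM5B (0.93) lie in the upper tail, KDM4B (0.51) on the upper shoulder, and KDM3B, JMJD1C and KDM4C close to the median of -0.13.

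**Figure D3:**
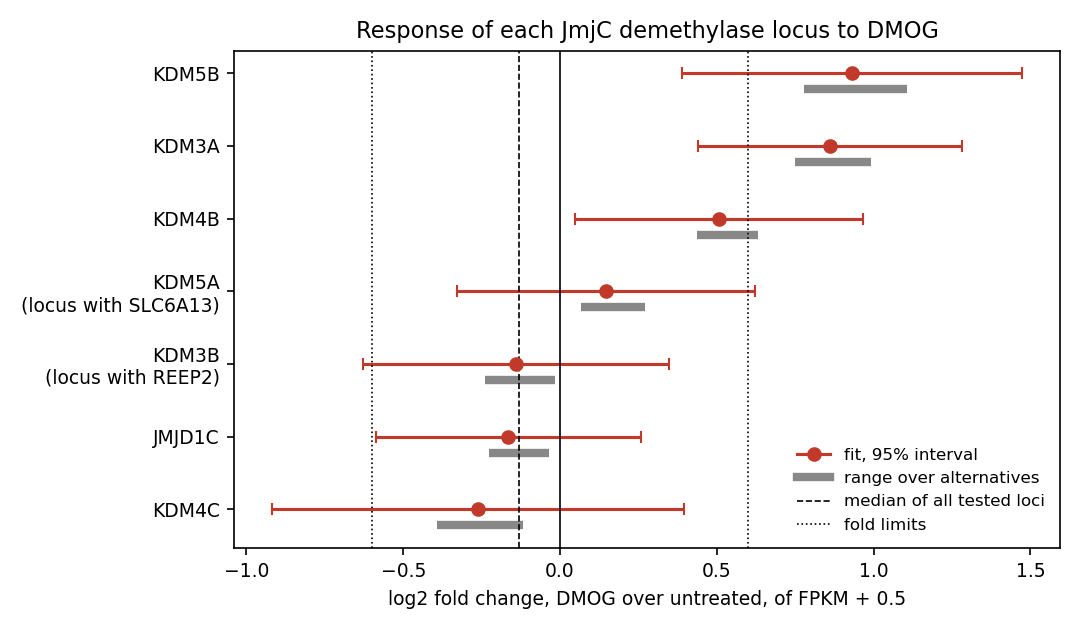
Log2 fold change of each demethylase locus (points) with its 95% interval from limma (red lines) and the range over the alternative settings (grey bars); the dashed line is the median of all tested loci and the dotted lines are the fold limits. The grey bars of KDM3A (0.75 to 0.99) and KDM5B (0.78 to 1.11) lie wholly past the upper limit, and that of KDM4B (0.44 to 0.63) crosses it.

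The order of the transcript levels differed between conditions. In DMOG-treated cells KDM3A (mean 32.5 ± 4.54 FPKM, SD, n = 3) was followed by KDM5B (21.9 ± 4.96), JMJD1C (11.6 ± 0.803), KDM4B (9.32 ± 0.796), the KDM3B locus (8.21 ± 1.12), the KDM5A locus (7.74 ± 0.728) and KDM4C (2.27 ± 0.463). Among treated libraries the ranges of KDM4B and KDM3B overlapped, as did those of KDM3B and KDM5A, while all other neighbours in the order were separate. In untreated cells the order was KDM3A (17.6 ± 1.63 FPKM), JMJD1C (13.1 ± 1.20), KDM5B (11.1 ± 1.84), KDM3B (9.09 ± 1.12), KDM5A (6.95 ± 0.746), KDM4B (6.41 ± 0.555) and KDM4C (2.79 ± 0.155). There the ranges of JMJD1C, KDM5B and KDM3B overlapped from one to the next, and so did those of KDM5A and KDM4B. KDM3A was thus the most abundant of the 7 messages, and KDM4C the least, in both conditions. Among all tested loci, KDM3A had a higher level than 93.3% with DMOG and than 84.4% without it, and KDM5B than 89.0% with DMOG and than 72.4% without it.

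Levels were also summed over the matched loci of each subfamily, joined genes included. The KDM3 genes summed to 59.7, 48.2 and 49.0 FPKM with DMOG, against 37.8, 42.3 and 39.2 FPKM in untreated cells. The KDM5 loci summed to 30.3, 34.8 and 23.7 FPKM with DMOG, against 15.9, 18.1 and 20.3 FPKM in untreated cells. KDM4B and KDM4C together gave 12.4, 12.1 and 10.3 FPKM with DMOG, against 9.55, 9.34 and 8.71 FPKM in untreated cells. All 3 sums were larger in every treated library than in any untreated one. The sums follow from the values of KDM3A, KDM4B and KDM5B already given and are descriptions with no test.

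Over all 7 loci the sum averaged 93.5 ± 9.78 FPKM with DMOG and 67.0 ± 3.37 FPKM in untreated cells (SD, n = 3 each), a difference of 26.4 FPKM. KDM3A was 14.9 FPKM and KDM5B 10.8 FPKM higher with DMOG. The other 5 loci, grouped after their values were seen, averaged 39.1 ± 3.18 FPKM with DMOG and 38.3 ± 1.35 FPKM in untreated cells, a net difference of 0.817 FPKM. It joins members that averaged more with DMOG, KDM4B and the KDM5A locus, with members that averaged less, and does not show that each was unchanged. KDM3A and KDM5B together made up 25.6 FPKM of the difference over all 7 loci.

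The ratio of the FPKM of 2 genes within a library does not depend on how that library was scaled, and was used to compare paralogs. The log2 ratios are not wholly free of the scaling, because 0.5 was added to each FPKM. KDM3A measured 3.99, 4.10 and 3.77 times the KDM3B locus in the DMOG libraries, against 1.70, 1.97 and 2.18 times in the untreated libraries. The log2 ratio, from FPKM + 0.5, was 1.00 higher with DMOG. KDM3A measured 3.01, 2.64 and 2.72 times JMJD1C with DMOG, against 1.37, 1.50 and 1.19 times without it, a difference of 1.03 in the log2 ratio. In the KDM3 subfamily the treated libraries were close to one another and well apart from the untreated ones in both ratios.

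KDM5B measured 2.71, 3.27 and 2.43 times the KDM5A locus with DMOG, against 1.58, 1.37 and 1.87 times in untreated cells, a difference of 0.78 in the log2 ratio. KDM4B measured 3.45, 4.64 and 4.48 times KDM4C with DMOG, against 2.41, 2.55 and 1.96 times in untreated cells, a difference of 0.77. This difference was 0.84 with 0.1 added to each FPKM and 0.70 with 1 added. In all 4 ratios every treated library was above every untreated one. Like the sums, the ratios are descriptions with no test, and that of KDM4B to KDM4C was chosen after its values were seen. With single libraries omitted, the 4 differences ranged from 0.91 to 1.08, 0.94 to 1.10, 0.67 to 0.90 and 0.67 to 0.88 on the log2 scale.

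As a share of its subfamily, KDM3A made up 62.0 ± 1.04% of the KDM3 FPKM with DMOG and 44.2 ± 1.53% without it (SD, n = 3 each). The KDM3B locus held 15.7 ± 0.611% with DMOG and 22.9 ± 2.74% without it, and JMJD1C 22.3 ± 1.19% with DMOG and 32.9 ± 3.17% without it. KDM5B held 73.5 ± 2.90% of the KDM5 FPKM with DMOG and 61.4 ± 3.69% without it. KDM4B held 80.5 ± 2.61% of the summed KDM4B and KDM4C FPKM with DMOG and 69.6 ± 2.95% without it. In each subfamily the share of 1 gene was larger after treatment in every library. Like the sums, the shares follow from the values already given and are descriptions with no test. A smaller share of the KDM3B locus or JMJD1C does not mean a lower level, since their own levels overlapped between conditions.

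**Figure D4:**
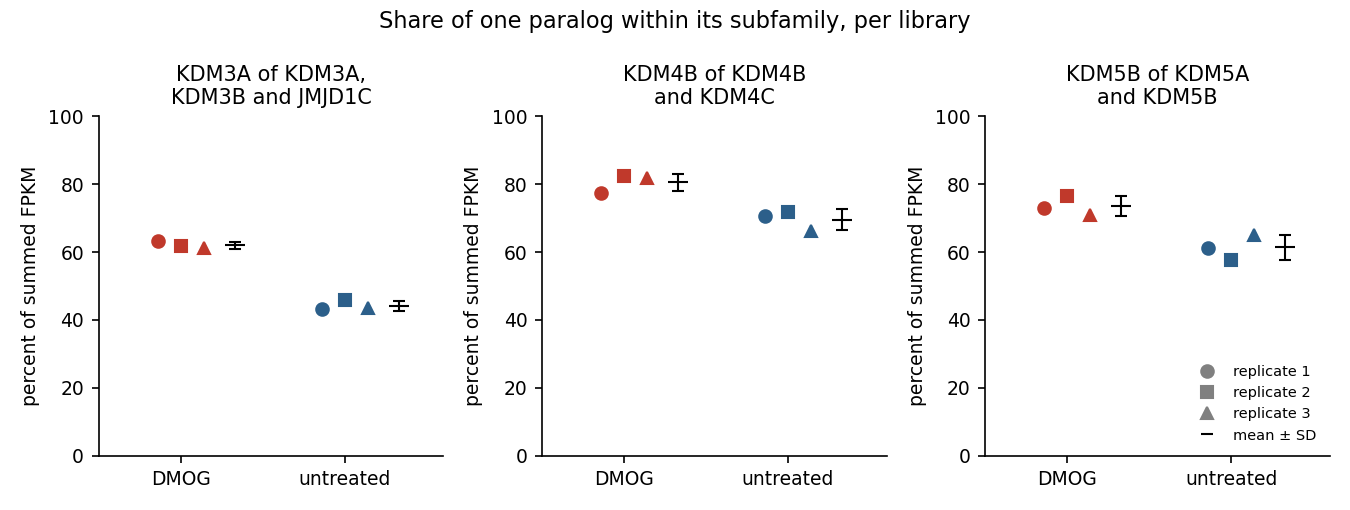
Share of the summed FPKM of a subfamily held by KDM3A, KDM4B and KDM5B in each library (percent, axes from 0 to 100), with DMOG left of untreated, one symbol per replicate and bars for the mean ± SD (n = 3). KDM3A shows the tightest replicates, at 61.2% to 63.2% with DMOG and 43.1% to 45.9% in untreated cells.

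The loci whose pattern over the 6 libraries was most like that of KDM3A were CDS2, EGLN1 and FLT1. Pearson's r was 0.99, 0.99 and 0.98 on log2(FPKM + 0.5), among 4825 single-gene loci averaging at least 5 FPKM over the 6 libraries. FLT1 measured 12.7, 7.70 and 7.39 FPKM with DMOG, against 0.44, 1.51 and 1.47 FPKM in untreated cells. It thus reached that average only through the treated libraries. EGLN1 encodes a HIF prolyl hydroxylase, FLT1 a VEGF receptor and CDS2 an enzyme of phospholipid synthesis. EGLN1 measured 82.4, 73.9 and 76.5 FPKM with DMOG, against 45.8, 50.9 and 49.2 FPKM in untreated cells, a log2 fold change of 0.67 (limma adjusted p 0.210). The treated EGLN1 values were all above the untreated ones, as those of KDM3A were. For KDM5B the most similar loci were SEPT9, which encodes a septin, MAPRE2, a microtubule end-binding protein gene, and SESN3, a sestrin gene, each at an r of 0.99. KDM5B shared with all 3 a high DMOG replicate 2, a lower DMOG replicate 3 and untreated replicate 3 as the highest untreated library. SEPT9 measured 26.1, 31.7 and 14.9 FPKM with DMOG, against 3.36, 3.65 and 7.66 FPKM in untreated cells. Its untreated libraries alone averaged under 5 FPKM, so like FLT1 it reached that average only through the treated libraries. KDM3A and KDM5B were correlated with an r of 0.86. These values describe 6 libraries that share the treatment and their scaling, and 23 loci for KDM3A and 54 for KDM5B exceeded an r of 0.95.

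Other proteins with a JmjC domain were set beside these enzymes. Of 13 tested, JARID2 was higher at the limits and 0 were lower, where 2.84% of all tested loci were higher and 4.97% lower. The median log2 fold change of the 13 was 0.03, beside -0.13 over all tested loci. JARID2 was also the only one of the 13 with an unadjusted p under 0.05 in limma, where 3.11% of all tested loci were higher at that p. JARID2, which has lost the residues for catalysis and works with Polycomb repressive complexes, measured 8.09, 9.13 and 5.07 FPKM with DMOG, against 4.04, 2.99 and 4.49 FPKM in untreated cells. The treated libraries lay above the untreated ones, DMOG replicate 3 only slightly. Its log2 fold change was 0.85 (95% interval 0.17 to 1.52; limma adjusted p 0.457). JARID2 no longer passed the p limit without DMOG replicate 1, DMOG replicate 2 or untreated replicate 2, at log2 fold changes of 0.77, 0.69 and 0.70. JMJD7, in a locus joined to another gene, also had every treated library above every untreated one, at a log2 fold change of 0.76 (95% interval -0.14 to 1.66; limma adjusted p 0.604). The locus averaged 0.993 FPKM in untreated cells and 2.04 FPKM with DMOG, so it reached the 1 FPKM needed for testing only through the treated libraries. It passed the limits under 4 of 15 alternatives, and is named after its values were seen. JMJD4 and JMJD6 were past the lower fold limit, at -0.68 (95% interval -1.53 to 0.18) and -0.63 (-1.61 to 0.35). JMJD4 measured 12.4, 10.2 and 4.30 FPKM with DMOG, against 14.6, 13.6 and 12.2 FPKM in untreated cells. JMJD6 measured 26.3, 28.8 and 8.75 FPKM with DMOG, against 32.1, 28.3 and 27.9 FPKM. DMOG replicate 3 was by far the lowest library for both genes. Both overlapped between conditions, missed the p limit and are also named after their values were seen. Treated libraries all above the untreated ones were found for 2 of the 13, JARID2 and JMJD7, against 4.47% of all tested loci. As JMJD7 was tested only through its treated libraries, this count is not read further.

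The FAD-dependent demethylases, which use no 2-oxoglutarate, gave 0 genes past the limits, or with an unadjusted p under 0.05 in limma, of 2 tested. Over all tested loci 7.81% passed the limits, so at least that share had an unadjusted p under 0.05. KDM1A, the H3K4 demethylase LSD1, measured 13.9, 25.8 and 10.4 FPKM with DMOG, against 20.2, 20.8 and 23.6 FPKM in untreated cells. DMOG replicate 2 was the highest of all 6 libraries, and the other treated libraries were the lowest. The log2 fold change was -0.46 (limma adjusted p 0.713), and it was -0.81 and passed the limits without DMOG replicate 2, but -0.18 without DMOG replicate 3. KDM1B measured 3.53, 2.85 and 1.20 FPKM with DMOG, against 4.83, 3.92 and 4.95 FPKM in untreated cells. All treated libraries lay below the untreated ones, at a log2 fold change of -0.83 (95% interval -1.69 to 0.03; limma adjusted p 0.565). Treated libraries all below the untreated ones were thus found for 1 of the 2, against 11.4% of all tested loci. KDM1B passed the limits without DMOG replicate 1, at -1.08, and when libraries were scaled on loci that are not small RNAs, at -0.84, but was at -0.46 without DMOG replicate 3.

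Lists of methyltransferases were set beside them for H3K9, H3K36, H3K4 and H3K27, the last being the mark of the unmatched KDM6 genes. Not every entry is itself a methyltransferase, and the activity of the entries was not examined. EED in the H3K27 list, for example, is a complex subunit without that activity. Together the lists gave 0 genes higher and 1 lower at the limits of 16 tested, where 2.84% of all tested loci were higher and 4.97% lower. The median log2 fold change of the 16 was -0.14, beside -0.13 over all tested loci. At an unadjusted p under 0.05 alone limma also gave 1 of the 16, EZH1, which was lower. At least 4.97% of all tested loci were lower at that p, since the limits include it. Of 7 matched H3K9 methyltransferases, SUV39H1 and PRDM16 averaged under 1 FPKM over the libraries and were not tested. SUV39H1 measured 0, 0.30 and 0 FPKM with DMOG, against 2.41, 1.04 and 1.09 FPKM in untreated cells, and is named after its values were seen. SUV39H2, also named after its values were seen, went the other way. It measured 8.27, 6.26 and 3.12 FPKM with DMOG, against 3.97, 2.83 and 3.47 FPKM in untreated cells. Its log2 fold change of 0.62 (95% interval -0.22 to 1.46; limma adjusted p 0.655) missed the p limit. Among the 5 tested 0 passed, and EHMT1 and PRDM2, the most abundant by the mean over all 6 libraries, had log2 fold changes of -0.07 (95% interval -0.66 to 0.52) and 0.05 (-1.24 to 1.34). The sign of EHMT1 turned with median scaling and quantile normalization and held when libraries were scaled on loci that are not small RNAs. Of 3 tested H3K36 methyltransferase loci, 0 passed, and ASH1L had 0.02 and the locus that joins NSD3 to FGFR1 and PLPP5 had -0.11, a sign that turned and held under the same settings. Of 5 tested loci in the H3K4 list, 0 passed. SETD7, at 27.5 ± 5.26 FPKM with DMOG and 29.5 ± 1.34 FPKM in untreated cells (SD, n = 3 each), had -0.12, which turned sign with median scaling, and KMT2E had -0.22.

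In the H3K27 methyltransferase complex EZH1, a catalytic subunit, was lower at the limits. It measured 1.48, 3.33 and 1.99 FPKM with DMOG, against 3.87, 4.14 and 5.15 FPKM in untreated cells, a log2 fold change of -0.87 (95% interval -1.62 to -0.11; limma adjusted p 0.505). The groups did not overlap, but the call was lost under 8 of 15 alternatives, among them the median scaling and the omission of any library other than DMOG replicate 2. EED, the subunit that binds the methylated histone, measured 8.43, 4.84 and 8.67 FPKM with DMOG, against 9.85, 10.7 and 10.2 FPKM in untreated cells, also without overlap. It is named after its values were seen, and its log2 fold change of -0.50 (95% interval -1.11 to 0.10, limma adjusted p 0.612) was short of the limits. All treated libraries were below the untreated ones at 2 of 3 tested loci here, against 11.4% of all tested loci. The H3K9, H3K36 and H3K4 lists had 0 such loci. EZH2, the other catalytic subunit, had a log2 fold change of 0.20 and overlapped between conditions.

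**Figure D5:**
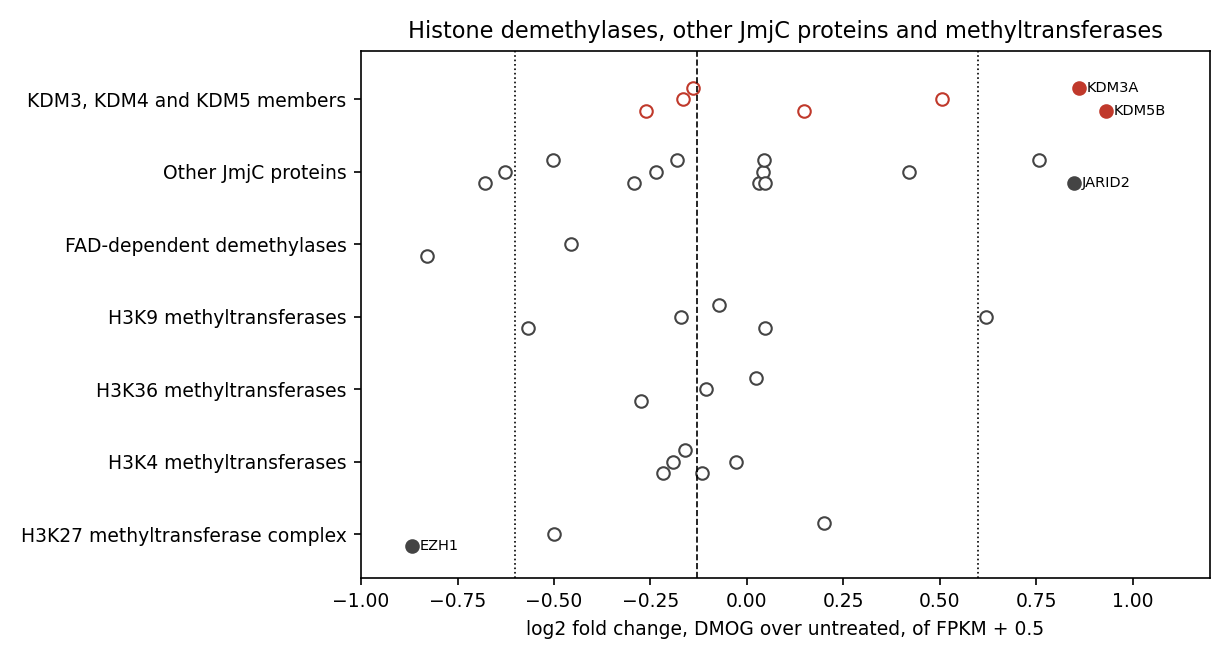
Log2 fold change (DMOG over untreated, FPKM + 0.5) of the 7 demethylase loci (red), other JmjC proteins, FAD-dependent demethylases and the methyltransferase lists, 1 point per tested locus. Filled points passed the limits, the dashed line is the median of all tested loci and the dotted lines are the fold limits. KDM3A, KDM5B and JARID2 are filled on the higher side and EZH1 on the lower side, and open points beyond a dotted line missed the p limit. The median of the 16 tested loci of the methyltransferase lists is -0.14.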

How the data were processed

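In this stranded total RNA-seq of 3 DMOG-treated and 3 untreated cultures, reads were trimmed with Cutadapt by the authors, aligned to galGal6 using HISAT2 and Bowtie2, and assembled into loci, some holding several genes, by StringTie with gffcompare. The deposited table holds FPKM per library, rounded to 2 decimals, beside the authors' fold changes and edgeR p-values, which were not used. Tool versions are not given in the sources used here. Read depth is unknown, so precision rests on the spread between replicates.

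Conditions were compared on log2(FPKM + 0.5) with limma 3.58.1 under R 4.3.3, using a mean-variance trend and no covariate, over 9816 loci averaging 1 FPKM or more. Benjamini-Hochberg adjustment covered all of these. Ratios and sums are given without a test, since the exact permutation test planned for them cannot go below 0.1 with 3 libraries against 3 and the genes were chosen with results known. Summaries used Python 3.11.15 with pandas 2.3.3 and numpy 2.4.6. The fit was tested on simulated data with independent normal noise and 200 of 9816 loci changed. At a log2 change of 1, 66.5% of changed loci were recovered at the limits and 2% had a limma adjusted p under 0.05. At a log2 change of 2 these were 95.5% and 73%. Of unchanged loci 4.27% and 4.38% were called.

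Members and lists were chosen with earlier results of these data known. Named genes were all members and, of each list, those past the limits or otherwise the 2 most abundant. For likeness to KDM3A and KDM5B, the 3 single-gene loci with the highest r were named. Planned ratios and sums with KDM4A, KDM6A and KDM6B could not be made. The KDM4B to KDM4C ratio and a scaling on loci other than small RNAs were chosen after seeing the data. Alternatives were pseudocounts of 0.1 and 1, a low-value filter that was absent or at 5 FPKM, quantile normalization, median scaling, no trend, array weights, a replicate block and omission of each library.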

Additional observations from a re-analysis of the deposited data

How the results depend on the processing

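KDM3A and KDM5B were past the limits under all 16 alternatives, at log2 fold changes of 0.75 to 0.99 and 0.78 to 1.11 and limma adjusted p of 0.0880 to 0.700 and 0.104 to 0.735. KDM3B, JMJD1C, KDM4C and KDM5A passed under none of the alternatives run for them and kept their sign, and KDM4B (0.44 to 0.63) passed under 2 of 16. KDM4C could not be fitted at a mean of at least 5 FPKM, where the members' median log2 fold change was 0.33, over the other 6 members. With that filter 183 loci were higher and 231 lower. Lower loci numbered 323 with median scaling and 320 with quantile normalization. Leaving out each library gave 328 to 774 lower loci, the most without DMOG replicate 1. Methyltransferase genes near 0 changed sign. EHMT1 had 0.051 with median scaling and 0.043 with quantile normalization, the NSD3 locus 0.020 with median scaling and 0.0067 with quantile normalization, and SETD7 0.016 with median scaling. Leaving out libraries gave -0.22 to 0.090 for EHMT1, -0.48 to 0.63 for PRDM2, -0.23 to 0.19 for ASH1L and -0.24 to 0.039 for SETD7. The cause was not tested.

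Libraries with the same replicate number did not deviate together, with correlations of -0.11, -0.17 and -0.23. Whether the numbers pair the samples is not stated, and correlations over so few libraries cannot settle it. With the replicate number as a block, 225 loci were higher and 371 lower, and the 2 members remained past the limits, KDM3A at 0.86 and KDM5B at 0.93. JARID2 (0.85), EZH1 (-0.87) and KDM4B (0.51) no longer passed the p limit. With 1 library of each condition per number, the block cannot change a difference of means, so it bears only on the p-values.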
